A study of Mus musculus with 99 samples.

Results

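The 8 genes described here are Rec8, Gprin1, Tmem179, Klhdc8a, Dlgap3, Pm20d1, Gstm7 and Parp10. They are 8 of the 35870 genes of the count table, and they were selected on 1 contrast of these data: the difference between exercised and sedentary mice at 18 months, taken as the mean of both leg muscles minus spinal cord. Those values are therefore given as a description, with no test. The series holds polyadenylated RNA from gastrocnemius (calf), quadriceps (thigh) and whole spinal cord of wild-type male C57BL/6 mice, perfused with PBS before the tissues were taken. Each tissue has 3 groups of mice, a sedentary one aged 10 months and, aged 18 months, a sedentary and an exercised one, and the labels do not say what the exercise was. Gastrocnemius and cord had 10, 10 and 13 libraries in these groups and quadriceps 10, 9 and 12, so 97 of 99 labelled samples were used, and 2 quadriceps samples were not analysed here. A library is named here by the number its title carries. Whether that number marks an animal is not stated, so p-values measure the spread between these libraries.

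Library totals ran from 29063006 to 62769274 counts, and gastrocnemius library 9.1 was the deepest. Levels are in CPM, a gene's count relative to the library total, scaled by TMM factors within a tissue, which correct for differences in library composition. Gastrocnemius libraries 3.1 and 2.2, quadriceps 3.1 and cord 5.2 and 6.1 lay away from the other libraries of the same tissue, and results were also computed without them. Those of the muscles are all 10-month libraries. The exercise difference does not compare them, but they enter the fit of their tissue and so bear on its standard errors and p-values. Muscle libraries held muscle fibre genes at high levels in every group, with myoglobin (Mb) at 1773 ± 136 CPM in sedentary 18-month gastrocnemius and 1929 ± 252 CPM in quadriceps (SD, n = 10 and 9), against 7.74 ± 5.64 CPM in cord (n = 10). Cord libraries held summed neuron markers at 9287 CPM or more.

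The name "neuronal-type genes" fits the known biology of only some of the 8. Dlgap3 encodes a scaffold protein of the postsynaptic density, the protein layer under excitatory synapses that ties glutamate receptors to the cytoskeleton. Gprin1 encodes a membrane-bound partner of G protein alpha subunits that promotes the outgrowth of neurites, and Tmem179 encodes a transmembrane protein. Klhdc8a encodes a protein with kelch repeats, a fold that binds other proteins. Rec8 encodes the kleisin subunit of meiotic cohesin, the ring that holds sister chromatids together in germ cells. The other three encode enzymes. Pm20d1 is a secreted enzyme that joins fatty acids to amino acids, and its N-acyl amino acid products can uncouple mitochondrial respiration. Gstm7 is a glutathione S-transferase of the mu class, which couples glutathione to reactive compounds, and Parp10 attaches single ADP-ribose units to proteins.

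In the contrast that chose them, the 8 genes stood at ranks 1 to 10 by p among 10477 genes with a positive difference, out of 19735 tested. Rec8 (log2 difference 2.14 ± 0.34, SE) ranked 1, Parp10 (0.55 ± 0.10) ranked 2 and Gprin1 (0.90 ± 0.17) ranked 3. Gstm7 (0.67), Tmem179 (1.104), Klhdc8a (0.84), Dlgap3 (1.16) and Pm20d1 (0.98) ranked 4, 5, 6, 8 and 10. Fam43a (0.47) at rank 7 and Slc25a1, the mitochondrial citrate carrier (1.17), at rank 9 lay between them and are not among the 8. Just below came Ttc25 (1.39) and Fhl1 (0.86), at ranks 11 and 12.

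In the assembly GRCm38.p6, RefSeq places Rec8 (Entrez 56739) at chr14:55618002-55625395 on the plus strand and Gprin1 (26913) at chr13:54736671-54749874 on the minus strand. Tmem179 (104885) lies at chr12:112500184-112511160 (minus), Klhdc8a (213417) at chr1:132298490-132307357 (plus) and Dlgap3 (242667) at chr4:127168305-127237022 (plus). Pm20d1 (212933) lies at chr1:131797385-131821472 (plus), Gstm7 (68312) at chr3:107926334-107931877 (minus) and Parp10 (671535) at chr15:76232995-76243440 (minus). Pm20d1 and Klhdc8a share chromosome 1, and the other 6 lie on separate chromosomes. In the GENCODE M21 annotation, 7 of the 8 genes share no exon base with another gene. Parp10 shares 205 exon bases with Plec, the gene of the cytolinker plectin on the same strand, and is uncertain to that extent. In sedentary 18-month libraries Plec had means of 848 CPM in gastrocnemius, 813 in quadriceps and 282 in cord. Parp10 had 5.33, 6.16 and 7.11 CPM there, and whether reads of Plec were counted for Parp10 was not tested. Plec itself did not pass the exercise test in either muscle. The nearest annotated exon of Ipo4 lies 5 bases from Rec8 on the opposite strand, and the strand setting of the counting is not given in the sources used here. Ipo4, the gene of a nuclear import receptor, had exercise differences of -0.14 in gastrocnemius and -0.03 in quadriceps.

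Sequence before the transcription start was compared as a description, since the direction that the 8 genes share in muscle was fixed by their choice. The RefSeq promoter table (GRCm38.p6) holds windows of 300 bases, 250 before and 50 after a start, for 6 of the 8 genes. The stretches below are those of Rec8, which had the largest difference, and of Gprin1 and Tmem179, which hold searched motifs. Each is the part of the window that lies before any annotated exon, read 5′ to 3′ on the gene's own strand, with motifs in capitals.
Rec8, chr14:55617916-55618001, plus strand: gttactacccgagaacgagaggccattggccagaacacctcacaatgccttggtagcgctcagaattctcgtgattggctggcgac
Gprin1, chr13:54749875-54750124, minus strand: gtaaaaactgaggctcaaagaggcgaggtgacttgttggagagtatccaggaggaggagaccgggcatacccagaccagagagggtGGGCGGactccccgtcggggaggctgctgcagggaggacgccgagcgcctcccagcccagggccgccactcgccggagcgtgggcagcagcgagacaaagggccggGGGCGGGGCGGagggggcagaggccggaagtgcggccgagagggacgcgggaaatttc
Tmem179, chr12:112511173-112511410, minus strand: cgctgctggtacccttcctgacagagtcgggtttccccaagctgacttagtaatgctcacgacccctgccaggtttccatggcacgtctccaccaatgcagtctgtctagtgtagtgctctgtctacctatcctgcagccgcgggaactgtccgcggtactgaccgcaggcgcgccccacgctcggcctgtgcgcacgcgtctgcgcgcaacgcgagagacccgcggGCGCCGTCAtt
The capitals in Gprin1 are Sp1 boxes (GGGCGG), the pair nearest the start overlapping by 1 base. In Tmem179 they are 1 antioxidant element (TGACNNNGC, read on the other strand) that overlaps the short CRE core (CGTCA). Rec8 shows none of the letters searched.

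Motif by motif, none of those searched was common to all 6 genes. Gstm7 has 2 windows and its motifs are those of either, while the shares below are per window. Sp1 boxes occurred in windows of Gprin1, Gstm7 and Klhdc8a, against 35.7% of all 32851 windows, and antioxidant elements in those of Gstm7 and Tmem179, against 12.4%. The CRE core of Tmem179 occurs in 20.8% of windows. None of the 6 genes' windows held the ERR site TCAAGGTCA (0.423% of all windows), the full CRE TGACGTCA (1.79%), the MEF2 site (3.69%), the E-box CAGCTG (16.3%), the left part of RE1 TTCAGCACC (0.371%) or the interferon element (3.44%). Both strands were searched for each, and the absence of these letters from 300 bases says nothing about a factor.

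At 10 months, in libraries that the chosen difference does not compare, 7 of the 8 genes had lower levels in leg muscle than in cord, and Parp10 did not. For each of these 7, every cord library lay above every muscle library in CPM scaled within a tissue. How many of all genes separate in this way was not counted, so nothing particular to the 7 is read from it. In bulk tissue, fewer cells of a type and less RNA per cell cannot be told apart. Dlgap3 had the widest gap, with 0.0521 to 0.229 CPM in quadriceps, 0.0678 to 0.189 in gastrocnemius and 78.4 to 97.3 in cord. Its fitted log2 difference, the mean of both muscles minus cord, was -8.27 ± 0.11 (SE), and those of Rec8 and Gprin1 were -6.47 ± 0.25 and -6.42 ± 0.11. These 3 genes did not pass the count filter in gastrocnemius and entered the fit over all tissues with at least 629 counts in every 10-month cord library, so their values carry no test.

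The other five passed the filter in each muscle alone. Of these 5, 4 were called lower in muscle by edgeR at an adjusted p under 0.05 and Parp10 higher, where 53.9% of 19735 genes were called lower and 38.2% higher. Tmem179 (-6.90 ± 0.15, adjusted p = 6.12e-66) was 119-fold lower, and Klhdc8a (-5.65 ± 0.11, adjusted p = 6.05e-69) 50.3-fold. The gaps of the enzyme genes Gstm7 (-3.32 ± 0.09, adjusted p = 2.74e-56) and Pm20d1 (-2.69 ± 0.14, adjusted p = 3.87e-33) were smaller, at 9.96-fold and 6.44-fold.

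Parp10 went the other way, and how far depended on the scaling. Its 10-month level was 5.31 ± 0.547 CPM in gastrocnemius, 6.13 ± 0.523 in quadriceps and 5.69 ± 0.959 in cord (SD, n = 10 each), and these ranges overlap. With TMM factors over all libraries, whose medians were 0.787 and 0.748 in the muscles and 1.71 in cord, its difference was 1.15 ± 0.08 (adjusted p = 9.15e-27). With library sizes only, an alternative added after seeing the data, it was 0.01 (adjusted p = 0.95). That change of scaling moved the median of all genes from -0.40 to -1.54, and the called genes from 7529 higher and 10644 lower to 3524 higher and 15052 lower. Relative to the median gene, Parp10 lay at 1.55 and 1.54 under both scalings, and with TMM the other 7 lay between -7.87 and -2.29. The direction of the 7 was the same under both. Parp10 shares exon bases with the far more abundant Plec, whose part in the Parp10 difference was not tested.

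Per transcript length, the order of the 8 genes differed between tissues. In TPM, the authors' length-scaled level, 10-month quadriceps held most Parp10 (3.93 ± 0.537, SD, n = 10) and Gstm7 (3.88 ± 0.629), which did not differ beyond their spread. Tmem179 (0.525 ± 0.237) and Pm20d1 (0.445 ± 0.159) came next and also overlapped, followed by Klhdc8a at 0.220 ± 0.0418, Rec8 at 0.121 ± 0.0815, Gprin1 at 0.0680 ± 0.0290 and Dlgap3 at 0.0499 ± 0.0293. In cord at 10 months Tmem179 led with 162 ± 6.398 TPM (n = 10), ahead of Gstm7 at 112 ± 6.06, Dlgap3 at 44.9 ± 3.07 and Klhdc8a at 29.6 ± 0.685. Below them came Rec8 at 24.0 ± 1.63, Gprin1 at 19.7 ± 0.999, Pm20d1 at 7.41 ± 0.582 and Parp10 at 4.81 ± 0.808. Parp10 thus stood among the top pair in muscle and last in cord.

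**Figure D1:**
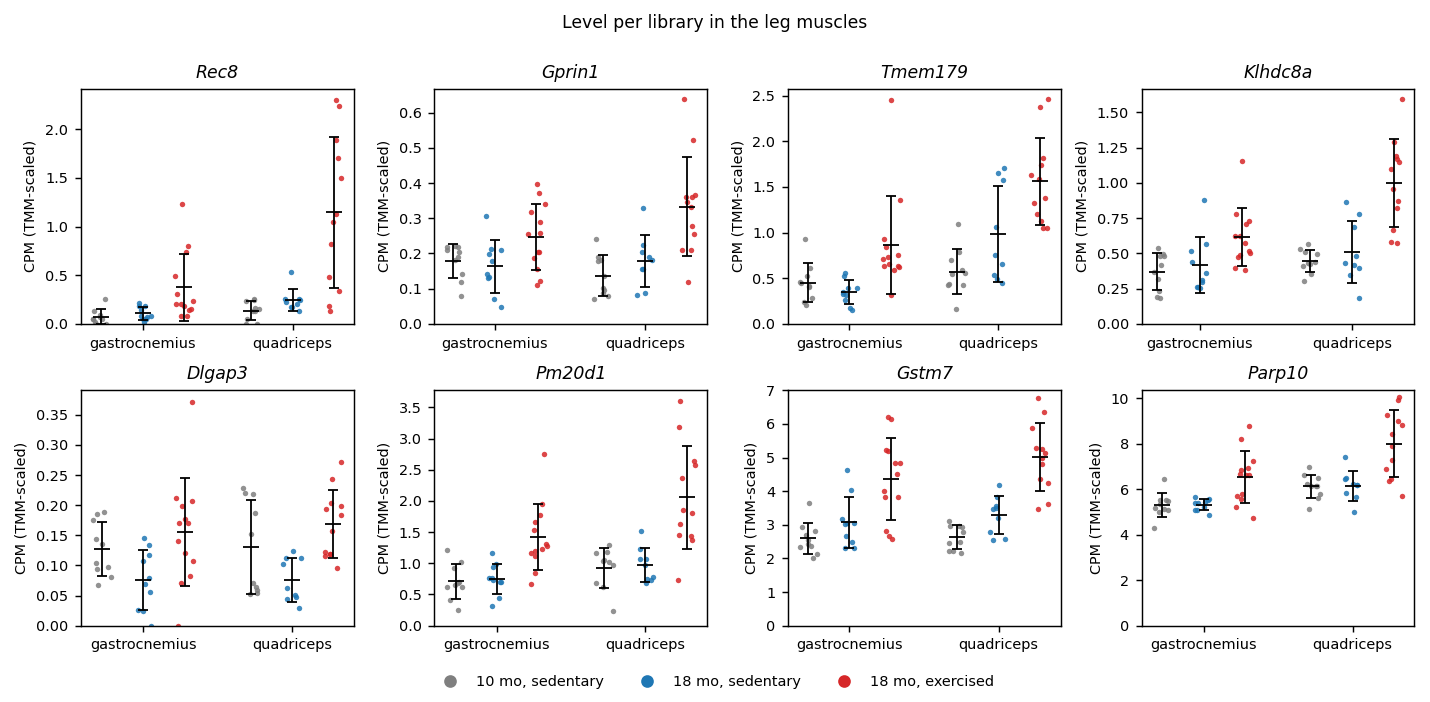
Level of each gene (TMM-scaled CPM, linear axis from 0) in every library of gastrocnemius and quadriceps; grey, 10 months sedentary; blue, 18 months sedentary; red, 18 months exercised; black bars are the mean and 1 SD. Exercised libraries spread upward from the sedentary range, as in Rec8, which reached 2.301 CPM in exercised quadriceps where the highest sedentary 18-month library had 0.534.

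Rec8 showed the largest exercise difference of the 8 genes in both muscles. In quadriceps it lay between 0.129 and 0.534 CPM in the 9 sedentary 18-month libraries (median 0.230; 5 to 13 counts) and between 0.131 and 2.301 CPM in the 12 exercised ones (median 1.09; 5 to 112 counts). The groups overlap: 8 of 12 exercised libraries lay above every sedentary one, and the lowest exercised library, 5.4, lay at the bottom of the sedentary range. The fitted log2 fold change was 2.27 ± 0.42 (SE), or 4.83-fold. Exercised quadriceps libraries had a coefficient of variation of 67.9%, where counting alone would give 15.1% at their mean count.

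Gastrocnemius Rec8 was lower, and fewer exercised libraries left the sedentary range. It ran from 0.0248 to 0.219 CPM (median 0.0819) in 10 sedentary 18-month libraries and from 0.0797 to 1.23 CPM (median 0.207) in 13 exercised ones, with 6 of 13 above every sedentary library. The gene did not pass the count filter in this muscle (median counts 3 and 8), and the fitted value was 1.84 ± 0.46, falling to 1.49 without exercised library 9.1. At 10 months Rec8 lay at or below 0.260 CPM in both muscles, with 2 libraries at 0 counts in each. A count of 0 allows up to 0.0703 to 0.0876 CPM in those libraries (3 counts, counting error only).

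Gprin1, the neurite outgrowth gene, and Dlgap3, the postsynaptic scaffold gene, had few counts in muscle, and their groups overlapped in both muscles. Gprin1 in quadriceps lay between 0.0835 and 0.329 CPM in sedentary 18-month libraries (median 0.181) and between 0.120 and 0.639 in exercised ones (median 0.339), and 7 of 12 exercised libraries lay above every sedentary one. The fitted change was 0.93 ± 0.25 (1.91-fold) in quadriceps and 0.61 ± 0.24 in gastrocnemius. In gastrocnemius, where Gprin1 did not pass the filter, 4 of 13 exercised libraries (0.111 to 0.398 CPM, median 0.256) lay above the highest of 10 sedentary ones (0.0486 to 0.306, median 0.160).

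Dlgap3 had the lowest mean of the 8 genes in the 18-month muscle groups, with 0 to 14 counts in any 18-month library. Quadriceps libraries held 0.0290 to 0.123 CPM when sedentary (median 0.0626) and 0.0958 to 0.271 when exercised (median 0.171), and those of gastrocnemius 0 to 0.146 (median 0.0742) and 0 to 0.372 (median 0.170). Exercised libraries above every sedentary one numbered 7 of 12 and 7 of 13. The fitted values were 1.14 ± 0.31 and 0.95 ± 0.36, and the gene passed the filter in neither muscle. The 10-month level, 0.131 ± 0.0776 CPM in quadriceps and 0.127 ± 0.0448 in gastrocnemius (SD, n = 10 each), lay within 1 SD of the exercised mean in both muscles, 0.169 ± 0.0558 (n = 12) and 0.156 ± 0.0895 (n = 13). In exercised quadriceps the spread of Dlgap3, 33.1% of the mean, was no wider than counting alone gives (40.0%).

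Tmem179 was the only one of the 8 with a larger fitted difference in gastrocnemius than in quadriceps. In gastrocnemius it lay between 0.149 and 0.560 CPM in sedentary 18-month libraries (median 0.339) and between 0.319 and 2.45 in exercised ones (median 0.711). Of 13 exercised libraries, 12 lay above every sedentary one. The log2 fold change was 1.35 ± 0.28 (2.55-fold), and 1.09 without library 9.1, which held the highest value. In quadriceps sedentary libraries already spread from 0.452 to 1.71 CPM (median 0.758), and 4 of 12 exercised libraries (1.05 to 2.46, median 1.48) lay above them. The change there was 0.66 ± 0.24.

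Klhdc8a, the kelch repeat gene, had more exercised libraries above the whole sedentary range in quadriceps than in gastrocnemius. Sedentary 18-month libraries ran from 0.180 to 0.863 CPM (median 0.430) and exercised ones from 0.576 to 1.60 (median 1.03), with 8 of 12 above every sedentary library. The fitted change was 0.97 ± 0.20 (1.96-fold). In gastrocnemius the exercised libraries, at 0.384 to 1.16 CPM (median 0.575), all lay above the sedentary median of 0.338, but 1 of 13 lay above the highest sedentary library (0.880 CPM). The change was 0.58 ± 0.22 there.

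Pm20d1, the N-acyl amino acid enzyme, had similar differences in both muscles. Quadriceps went from 0.686 to 1.52 CPM (median 0.968) in sedentary 18-month libraries to 0.738 to 3.61 (median 1.83) in exercised ones, and gastrocnemius from 0.315 to 1.16 (median 0.745) to 0.666 to 2.75 (median 1.28). The log2 fold changes were 1.09 ± 0.23 (2.14-fold) and 0.94 ± 0.22 (1.92-fold). Exercised libraries above the whole sedentary range numbered 8 of 12 and 10 of 13.

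Gstm7 and Parp10, the most abundant of the 8 in muscle, had the smallest fold changes and the tightest groups. Gstm7 in quadriceps lay between 2.55 and 4.19 CPM in sedentary libraries (median 3.48) and between 3.48 and 6.76 in exercised ones (median 5.06), 10 of 12 above every sedentary library, with a change of 0.61 ± 0.11 (1.52-fold). In gastrocnemius it went from 2.297 to 4.63 CPM (median 3.03) to 2.57 to 6.22 (median 4.51), with 6 of 13 above the sedentary range and a change of 0.51 ± 0.14. Parp10 lay between 4.87 and 5.66 CPM in sedentary gastrocnemius (median 5.401) and between 4.75 and 8.77 in exercised (median 6.65), with 10 of 13 above the sedentary range. Its change was 0.30 ± 0.08 (1.23-fold) in gastrocnemius and 0.38 ± 0.09 (1.302-fold) in quadriceps, where 7 of 12 exercised libraries (5.72 to 10.07 CPM, median 8.18) lay above the sedentary ones (4.999 to 7.43, median 6.18).

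Of the 8 genes, 5 passed the count filter in gastrocnemius and 7 in quadriceps. Tmem179 was the 1 of these 5 among the 11 genes called higher with exercise in gastrocnemius (0.0732% of 15027 tested; 0.0333% were called lower). In quadriceps 5 of the 7, all but Gprin1 and Tmem179, were among the 88 called higher (0.595% of 14790; 0.162% were called lower). The genes were chosen on these libraries, so nothing is read from these counts.

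**Figure D2:**
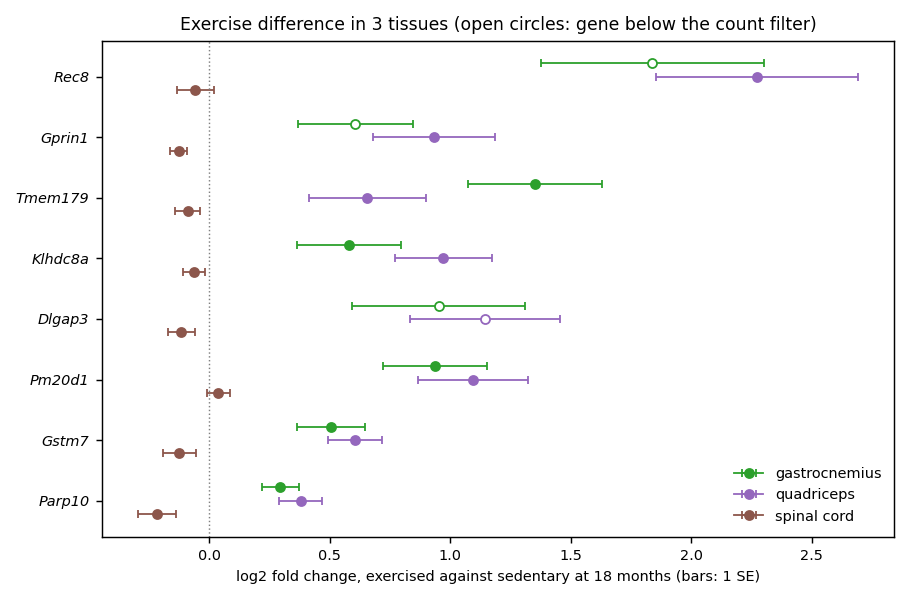
Fitted log2 fold change of exercised against sedentary libraries at 18 months for each gene, in gastrocnemius (green), quadriceps (purple) and spinal cord (brown); bars are 1 SE and open circles are genes below the count filter. All muscle values lie to the right of 0, from 0.30 to 2.27, and the cord values lie between -0.22 and 0.04.

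In spinal cord the fitted exercise differences of the 8 genes lay between -0.22 and 0.04. Rec8 lay between 13.9 and 26.4 CPM in the sedentary 18-month libraries (median 21.3, n = 10) and between 16.8 and 24.9 in exercised ones (median 19.8, n = 13). Dlgap3 lay between 82.6 and 124 CPM (median 92.5) and between 78.3 and 105 (median 85.7), and Tmem179 between 122 and 176 (median 143) and between 124 and 158 (median 137). Exercised and sedentary libraries overlapped for all 8 genes, and for 7 of them no exercised library exceeded the highest sedentary one. That highest library was 5.2 for Gprin1, Klhdc8a and Dlgap3 and 6.1 for Tmem179 and Gstm7. Both lay away from the other cord libraries. How many of all genes show this was not counted, and nothing is read from it. The log2 fold changes were -0.22 ± 0.08 for Parp10, -0.13 ± 0.04 for Gprin1, -0.12 ± 0.07 for Gstm7 and -0.11 ± 0.06 for Dlgap3. Those of Tmem179, Klhdc8a, Rec8 and Pm20d1 were -0.09, -0.06, -0.06 and 0.04. No gene of the 18956 tested in cord was called in either direction by edgeR (0%) or DESeq2, with 2565 at an unadjusted p under 0.05. The cord difference was subtracted in the contrast that chose the 8 genes. Their cord values are therefore a description, with no test.

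**Figure D3:**
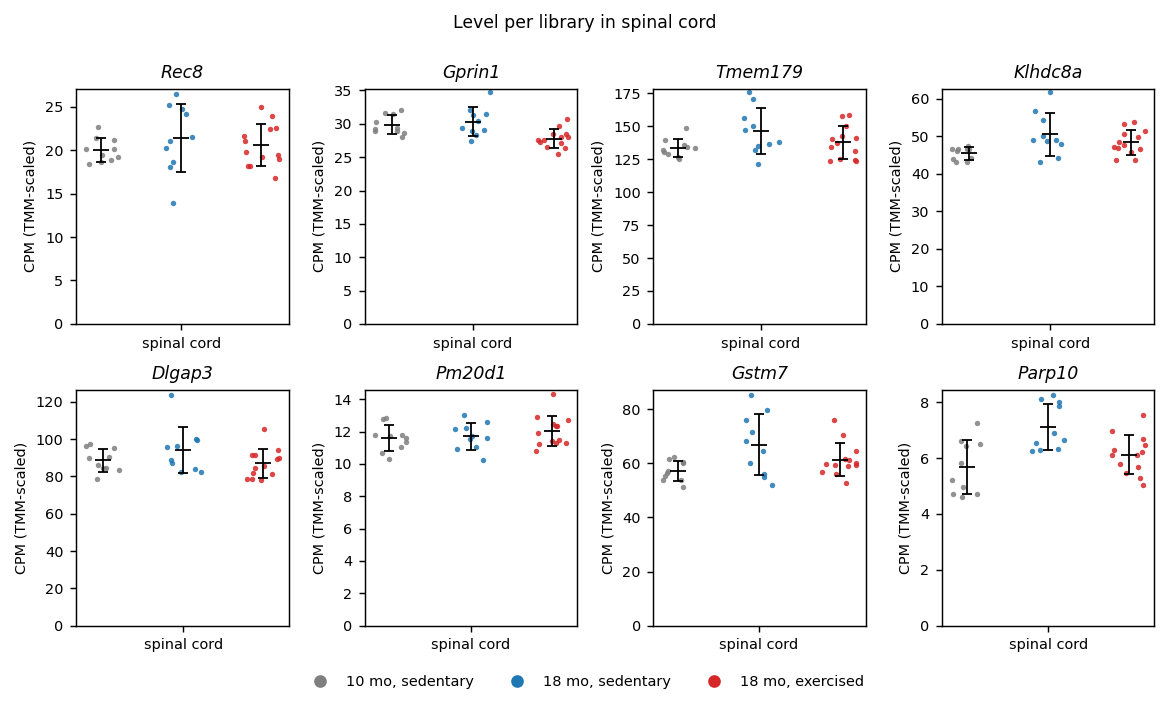
Level of each gene (TMM-scaled CPM, linear axis from 0) in every spinal cord library, with groups coloured as for muscle and bars of the mean and 1 SD. The groups overlap for each gene; Dlgap3 lies between 78.3 and 124 CPM and Parp10 between 4.61 and 8.24.

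Whether the exercise difference itself differed between gastrocnemius and quadriceps was tested in 1 fit over the 64 muscle libraries, a contrast that did not enter the choice. No gene of 15433 passed with edgeR (0%) or DESeq2, with 357 (2.31%) at an unadjusted p under 0.05. Of the 5 members that passed the filter in each muscle alone, 0 were called. The largest gap was that of Tmem179, 0.69 ± 0.38 higher in gastrocnemius (95% interval -0.05 to 1.43, p = 0.0707, edgeR adjusted p = 0.9998). Klhdc8a (-0.39, interval -0.98 to 0.19), Pm20d1 (-0.16, -0.79 to 0.47), Gstm7 (-0.10, -0.46 to 0.26) and Parp10 (-0.09, -0.32 to 0.14) had the fitted difference on the side of quadriceps. So did Rec8 (-0.44, -1.83 to 0.95) and Gprin1 (-0.33, -1.02 to 0.36), whose median counts in the sedentary muscle groups were 2 to 9 and 4.5 to 8, and whose values are given without a test. These intervals do not show that the muscles respond alike.

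Between the muscles at 10 months, Parp10 was 0.27 ± 0.09 lower in gastrocnemius than in quadriceps (edgeR adjusted p = 0.0312). It was the 1 called of the 5 members above, where 10.9% of 15433 genes were called. Pm20d1 (-0.43 ± 0.25, interval -0.92 to 0.06, adjusted p = 0.292) and Tmem179 (-0.42 ± 0.30, interval -1.004 to 0.17, adjusted p = 0.421) did not pass, and these intervals do not show that the muscles hold the same level. The fitted value of Rec8, -0.87 ± 0.66, rests on 0 to 11 counts a library.

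The difference between sedentary mice at 18 and 10 months is given as a description only, since it shares the 18-month sedentary libraries with the choice. In gastrocnemius the fitted values ran from -0.68 (Dlgap3) to 0.51 (Rec8), and those of Pm20d1 (0.06 ± 0.24) and Parp10 (0.01 ± 0.08) were near 0. Quadriceps had a higher mean of Tmem179 at 18 months (0.988 ± 0.526 CPM, n = 9) than at 10 months (0.574 ± 0.251, n = 10; SD), with a log2 value of 0.79 ± 0.27 that contrasts with -0.38 ± 0.31 in gastrocnemius. Dlgap3 had negative values in both muscles, -0.80 ± 0.34 in quadriceps and -0.68 ± 0.40 in gastrocnemius, on 0 to 9 counts a library. In cord the fitted values of all 8 were positive, from 0.02 for Pm20d1 and Gprin1 to 0.15 ± 0.05 for Klhdc8a, 0.22 ± 0.07 for Gstm7 and 0.32 ± 0.08 for Parp10.

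Since 7 of the 8 genes are far more abundant in cord, neuron markers were followed beside them. The markers are the synaptic genes Snap25, Syt1 and Syn1, the neurofilament genes Nefl, Nefm and Nefh, and Rbfox3, Tubb3, Stmn3 and Uchl1. Their sum ran from 6.38 to 13.4 CPM in sedentary 18-month gastrocnemius (median 8.08) and from 7.22 to 18.9 in exercised (median 12.2), and in quadriceps from 5.302 to 8.92 (median 6.35) and from 6.23 to 15.7 (median 10.7). The sum includes Uchl1, at 1.70% and 1.25% of its cord level in sedentary 18-month gastrocnemius and quadriceps. The other 9 markers reached at most 0.230% and 0.159% there, and the weight of Uchl1 in the sum was not computed. The median log2 fold change over 8 tested markers was 0.44 in gastrocnemius and 0.50 in quadriceps, against 0.00 for all genes in either muscle. The deubiquitinase gene Uchl1 passed in quadriceps (0.72 ± 0.14, adjusted p = 0.00882), 2 of 8 markers in gastrocnemius and 4 of 8 in quadriceps had an unadjusted p under 0.05 (13.6% and 11.4% of all genes did), and no marker was at 0 in every library of a group. Motor neuron markers were at or near 0, with a sum of at most 0.579 CPM in any 18-month muscle library and 1 of 5 at 0 in every library of each of these groups. Schwann cell markers, 10 genes of the myelinating cells of nerve, had a median of 0.04 in gastrocnemius and 0.08 in quadriceps, and none passed.

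The 8 genes and the 10 neuron markers were set against their own level in cord of the same group. At 10 months, in groups that the choice did not compare, Dlgap3 was lowest of the 8, at 0.308% in gastrocnemius and 0.335% in quadriceps. The 9 markers other than Uchl1 reached at most 0.260% and 0.170% there. Uchl1, at 1.87% and 1.46%, lay above Dlgap3, Tmem179 and Gprin1 in both muscles. In gastrocnemius it also lay above Rec8 and Klhdc8a, and the remaining members lay above it. In exercised muscle the 8 genes were chosen for being high and the markers were not, so those values are a description. In exercised quadriceps, 9 of the 10 markers lay between 0.0837% and 0.236% of their cord level, and Uchl1 at 2.197%. In the same libraries Dlgap3 lay at 0.444%, Tmem179 at 2.60%, Gprin1 at 2.74%, Klhdc8a at 4.72%, Rec8 at 12.7%, Gstm7 at 18.7%, Pm20d1 at 39.0% and Parp10 at 299%. In sedentary 18-month quadriceps the 9 markers reached at most 0.159% and Dlgap3 was lowest of the 8 at 0.185%. In sedentary 18-month gastrocnemius Dlgap3, at 0.175%, lay inside the range of those markers, 0.0667% to 0.230%. These percentages use TMM factors over all libraries, which scale members and markers alike. The part of the neuron markers in the exercise differences was not tested.

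**Figure D4:**
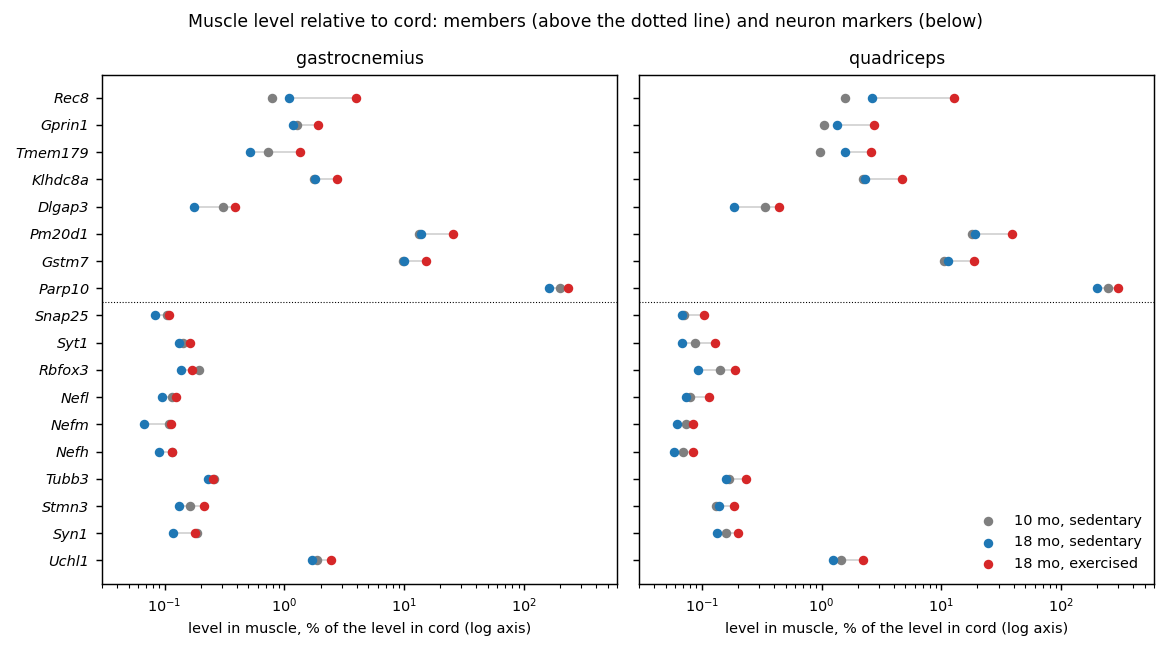
Mean level in muscle as a percentage of the mean level in cord of the same age and exercise group (log axis), for the 8 genes above the dotted line and 10 neuron markers below it; grey lines join sedentary and exercised 18-month groups. In exercised quadriceps 9 markers lie between 0.0837% and 0.236%, and Rec8, chosen for its exercise difference, moved from 2.61% to 12.7%.

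Markers of other cells were compared between the same groups. Red cell markers, the globin genes and Alas2, had fitted medians of -0.86 in gastrocnemius, -0.74 in quadriceps and -1.42 in cord, with 0 of 5 called in each. Their sum reached 1224 CPM in 1 sedentary 18-month gastrocnemius library (median 64.0) and 999 CPM in quadriceps (median 103), against at most 274 and 233 CPM in exercised libraries (medians 76.4 and 134). The group medians of the sum were thus higher in exercised muscle, the other way from the fitted values. Adipocyte markers, 7 genes such as Adipoq and Plin1, had a median of 0.41 in gastrocnemius and -0.13 in quadriceps, with none called. Their sum ran from 35.8 to 103 CPM in sedentary and from 42.5 to 239 CPM in exercised gastrocnemius, and in quadriceps from 61.3 to 400 and from 104 to 278 CPM. Endothelium markers, 6 genes, had medians of 0.23 and 0.16, with none called and sums of 201 to 275 and 205 to 365 CPM in gastrocnemius and of 208 to 279 and 205 to 356 CPM in quadriceps. In gastrocnemius 4 of 6 endothelium, 3 of 7 adipocyte and 2 of 5 red cell markers had an unadjusted p under 0.05 (edgeR). In quadriceps 2 of 6, 0 of 7 and 0 of 5 did, and in cord 5 of 5 red cell markers. Of all genes 13.6% did in gastrocnemius, 11.4% in quadriceps and 13.5% in cord. No marker of these 3 lists was at 0 in every library of an 18-month muscle group, and their part in the exercise differences was not tested. Macrophage (0.10 and -0.05), satellite cell (-0.04 and -0.05), oligodendrocyte (-0.04 and 0.08) and astrocyte markers (0.22 and 0.29) had no gene called in either muscle.

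Across libraries of a group, the members and the neuron marker sum had correlations from -0.403 to 0.486 in gastrocnemius and from 0.039 to 0.451 in quadriceps, positive for 6 and 8 of the 8 genes. Deviations from the group mean were correlated in each muscle, 16 relations with permutation p-values, a comparison added after seeing the data. The marker sum here includes Uchl1 too. How many of all genes have a positive correlation with it was not counted. None passed with both Pearson's r and Spearman's rho. Dlgap3 came closest, with r = 0.486 (permutation p = 0.00307, adjusted p = 0.0491) and rho = 0.435 (permutation p = 0.0126, adjusted p = 0.0975) over 33 gastrocnemius libraries, and r = 0.399 without the 2 farthest libraries. In quadriceps (31 libraries) it had r = 0.451 (permutation p = 0.0215, adjusted p = 0.11). Rec8 had r = 0.015 in gastrocnemius and 0.366 in quadriceps, the latter 0.111 without 2 libraries (adjusted permutation p = 0.948 and 0.151). In quadriceps Gprin1 had r = 0.349 and Klhdc8a r = 0.303 (adjusted permutation p = 0.151 each), 0.237 and 0.147 without 2 libraries. Pm20d1 had opposite signs, -0.403 and 0.449 (adjusted permutation p = 0.11 each).

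Of the relatives of the 8 genes in their pathways, 2 were called with exercise, both in quadriceps. Over all genes 0.0732% were called higher in gastrocnemius and 0.595% in quadriceps, so lists of this size would hold few calls at that share, and nothing particular to them is read from the counts. None of 11 postsynaptic scaffold genes tested in muscle, such as Shank3, was called with exercise in either muscle, with medians of -0.05 in gastrocnemius and -0.02 in quadriceps. Nor was any of 11 neurite outgrowth genes (0.19 and 0.05), 13 cohesin and meiosis genes (-0.07 and -0.03), 8 other Klhdc kelch genes (0.01 and 0.02) or 21 genes of ADP-ribosylation (-0.00 and 0.03). Of N-acyl amino acid and uncoupling genes, 0 of 10 in gastrocnemius and 0 of 9 in quadriceps passed. Glutathione transferases had 0 of 19 called in gastrocnemius and 2 of 19 in quadriceps, Gsto1 (0.33 ± 0.08, adjusted p = 0.0449) and the mitochondrial Gstk1 (0.34 ± 0.09, adjusted p = 0.0459), with a list median of -0.00. Among Nrf2 target genes, interferon response genes, genes of the neuromuscular junction and denervation, and exercise-responsive genes such as Ppargc1a, none of 9, 11, 18 and 11 tested was called in either muscle. No gene of these 11 lists was called in cord. At an unadjusted p under 0.05, which 13.6% of all genes reached in gastrocnemius, 11.4% in quadriceps and 13.5% in cord, each list held 0 to 4 genes, the 4 of 9 N-acyl amino acid and uncoupling genes in quadriceps being the highest share in muscle. For comparison, among 9 muscle fibre markers the fast myosin gene Myh1 (1.06 and 0.84) and Mb (0.84 and 0.90) were called higher in gastrocnemius and quadriceps, and Myh2 (0.83) in quadriceps. The lists' counts and medians are descriptions beside those of all genes, whose medians were 0.00 in gastrocnemius and -0.00 in quadriceps.

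Within a muscle and group, the 8 genes were compared pair by pair. Of 28 pairs, 24 in gastrocnemius and 23 in quadriceps had a positive correlation of their deviations from the group mean, with medians of 0.233 and 0.205. The share of positive pairs over all genes was not counted, so nothing particular to the 8 is read from it. No pair passed with both Pearson's r and Spearman's rho after adjustment over the 56 relations, which were also added after seeing the data. The closest pair was Rec8 and Pm20d1 in quadriceps, with r = 0.67 over 31 libraries (adjusted permutation p = 0.0112), rho adjusted p = 0.0588, and r = 0.616 without the 2 farthest libraries.

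Single libraries stood high or low for several genes at once. Exercised gastrocnemius library 9.1, the deepest with 62769274 counts, held the highest level of 5 of the 8, namely Rec8, Tmem179, Klhdc8a, Pm20d1 and Parp10, and ranked 8 of 13 in summed neuron markers. Exercised quadriceps library 7.1 was highest for Tmem179, Pm20d1, Gstm7 and Parp10. Library 5.4 of that group was at or below the group median for all 8, lowest for 4 of them, and lowest of 12 in neuron markers. In sedentary 18-month quadriceps, library 5.2, the shallowest of all with 29063006 counts, was highest for 5 genes. Leaving out each 18-month library in turn gave exercise values between 0.26 for Parp10 in gastrocnemius and 2.44 for Rec8 in quadriceps; their sign was fixed by the choice of the genes and is no support for it.

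Libraries with the same number in both muscles were compared for shared deviations from the group mean, over 31 numbers. None of the 8 passed after adjustment. Pm20d1 had r = 0.435 (permutation p = 0.0204, adjusted p = 0.164), rho = 0.365 (permutation p = 0.051, adjusted p = 0.299) and the same sign for 21 of 31 numbers, and r fell to 0.218 without the 2 farthest numbers. Parp10 had r = 0.274 (permutation p = 0.244, adjusted p = 0.617) and 20 of 31. Rec8 had r = -0.055 (permutation p = 0.793, adjusted p = 0.907) and 15 of 31.

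**Figure D5:**
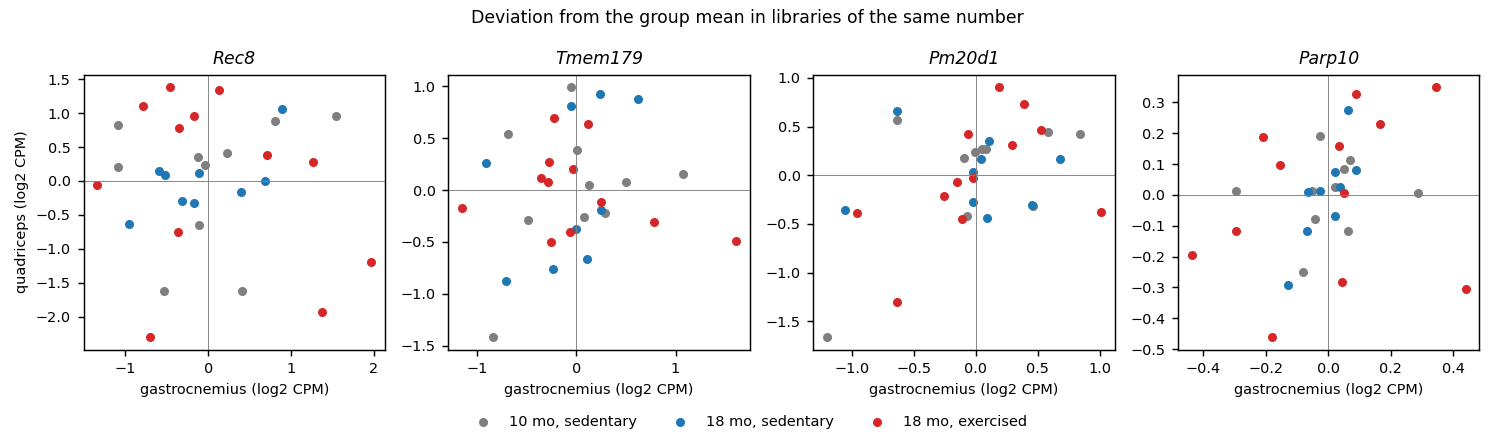
Deviation of log2 CPM from the group mean in gastrocnemius (horizontal) and quadriceps (vertical) for the 31 numbers with a library in both muscles, for Rec8, Tmem179, Pm20d1 and Parp10, coloured by group. Points of Rec8 (r = -0.055) fill all quadrants, while those of Pm20d1 (r = 0.435) lean along the diagonal.

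Over all 64 muscle libraries, after subtracting each muscle's mean, the 3 genes most like each member were named among 13161 ranked. These r values include the exercise difference that the members were chosen for and are a description. Rec8 was most like Ntng2 (r = 0.82), the M-band gene Myom3 (0.81) and Got2, a mitochondrial aminotransferase (0.81). Tmem179 was most like 3 genes of fatty acid synthesis and citrate export, Fasn (0.87), Slc25a1 (0.86) and Acly (0.86). Pm20d1 was most like Plxnb3 (0.81), Ntng2 (0.80) and Slc25a35 (0.80), and Gstm7 like Gstk1 (0.86), Got2 (0.81) and Nnt (0.79). Parp10 went with Phyh (0.77), Got2 (0.76) and Car4 (0.75), and Klhdc8a with Slc38a10 (0.70), Got2 (0.70) and Mb (0.68).

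Gprin1 and Dlgap3, with the fewest counts, had the lowest r. Gprin1 was most like Mb (0.64), Myh1 (0.62) and Got2 (0.60). The nearest genes of Dlgap3 were Disp2 (0.63), Sez6l2 (0.60) and the neuronal kinesin gene Kif5a (0.60), which are themselves scarce in muscle (0.421, 0.946 and 1.59 CPM in exercised quadriceps) and abundant in cord (924, 591.6 and 2103 CPM). Got2 appeared for 5 of the 8 genes.

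With the group means removed, the same r values were lower for most of these pairs. They were 0.77, 0.72 and 0.73 for the 3 genes of Tmem179, 0.66, 0.64 and 0.60 for those of Rec8, and 0.72, 0.66 and 0.76 for those of Pm20d1. Those of Gstm7 went to 0.74, 0.58 and 0.50 and those of Parp10 to 0.66, 0.55 and 0.62. Klhdc8a (0.48, 0.41 and 0.42) and Gprin1 (0.44, 0.41 and 0.32) had the lowest values, while Dlgap3 had 0.64, 0.49 and 0.54.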

How the data were processed

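Polyadenylated RNA of 97 libraries was sequenced from TruSeq libraries. The submitters' processing notes name STAR 2.5.2b and the assembly GRCm38.p5. No source used here names the counting program or its strand setting. The deposited values are raw counts per gene and TPM, which the authors scaled by transcript length. Counts were tested with edgeR 4.0.16 (R 4.3.3) by its quasi-likelihood test, with TMM factors, filterByExpr (minimum count 10, minimum total 15) and Benjamini-Hochberg adjustment over all genes tested, called at 0.05. There was 1 fit per tissue, 1 over both muscles and 1 over all tissues. Members below the filter were fitted for their value and given no p. DESeq2 1.42.0 was an alternative, and the edgeR script was tested on simulated data. Correlations used 100000 resamples, two-sided, with libraries permuted within groups. Totals of 29063006 to 62769274 counts limit precision most for genes with few counts. The 8 genes, the gene and marker lists and the tests were chosen with earlier results of these data known. The text names the 8 genes, up to 4 called genes of each list, and the 3 genes most like each member. Gene positions are from RefSeq, and strands and exon overlaps from GENCODE M21.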

Additional observations from a re-analysis of the deposited data

Results flagged for a closer look

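Of 48 gene and group combinations of 10 or fewer libraries, 4 had 1 library far from the others by Dixon's criterion, which chance alone meets in about 1 of 20. Rec8 was at 0.260 CPM in 10-month gastrocnemius library 3.2, where the next highest was 0.136, and at 0.534 CPM in sedentary 18-month quadriceps library 5.2, where the next was 0.260. Klhdc8a was at 0.880 CPM in 1 sedentary 18-month gastrocnemius library, against 0.566 in the next. Without that library its exercise value in gastrocnemius went from 0.58 to 0.76. Dlgap3 was at 123.9 CPM in sedentary 18-month cord library 5.2, against 100.3 in the next.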

How the results depend on the processing

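For the 5 genes that passed the filter in each muscle alone, 80 alternative values were computed in contrasts that did not choose the genes, and 78 kept their direction and side of the threshold. Those of the exercise difference within a tissue and of muscles minus cord are not counted, since the choice bears on their direction. The 80 include the exercise difference between the muscles, where no gene was called under any setting. They also include the 10-month gaps to cord of the 4 genes called lower, with edgeR adjusted p of 3.87e-33 or less. For these values, staying on the same side of the threshold says little. Parp10 lost its call between the muscles at 10 months with no filter on low counts (-0.27, adjusted p = 0.0546 by edgeR) and its call between muscle and cord with library sizes only (0.01, adjusted p = 0.95), and the same-number correlation of Klhdc8a turned from 0.0193 to -0.0235 without numbers 2.2 and 3.1. Counts over all genes moved more. Genes called with exercise in gastrocnemius numbered 16, against 25 with RLE factors, 10 with no filter, 686 without the libraries standing apart and 201 with DESeq2, and from 3 (without sedentary library 6.2) to 133 (without exercised library 5.4) when 1 library was left out. In quadriceps they numbered 112, against 78 with no filter, 341 without the libraries standing apart and 222 with DESeq2, and from 60 (without sedentary library 4.3) to 218 (without exercised library 5.4). For the 10-month difference between the muscles, 1687 genes were called, 3886 without the libraries standing apart and 3711 with a replicate block. For the exercise difference of muscles minus cord, 175 were called, 90 with no filter, 108 without the libraries standing apart, 867 with a replicate block and 482 with DESeq2. The called genes split into 119 higher and 56 lower, against 111 and 17 with library sizes only and 382 and 485 with the replicate block. The cause of these shifts was not tested. The labels do not say that a number pairs libraries. Over 31 numbers shared by the muscles the correlation of deviations ran from -0.151 to 0.897 (median 0.272), with 28 over 0.1 and 23 closest to their own number, a hint of pairing from the data and not the design, and the muscles were fitted without the block. The replicate block changed no call of the 8 genes.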
